A study of Mus musculus with 13 samples.

Results

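The regions described here had a called H3K27ac peak in every melanoma line with intact Cdh1, the E-cadherin gene, and in no line with Cdh1 deleted. They were chosen by their calls in 9 lists of H3K27ac ChIP-seq peaks, 1 list for each mouse melanoma cell line. Peaks that overlapped or touched were joined into 59668 regions. A region became a member when all 4 Ecad lists had a peak in it and none of the 5 ΔEcad lists had one. The rule kept 329 regions, 0.551% of all joined regions and 2.16% of the 15224 regions called in all 4 Ecad lists. The reverse pattern, all 5 ΔEcad lists and no Ecad list, was held by 2 regions, or 0.00335%. The reverse count rose to 53 without line Ma_1062, to 43 without Ma_1069 and to 37 without Ma_1007. Leaving out a line removes a condition of the rule, which by itself lets more regions in. These counts follow from the rule and were not tested.

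The lines came from melanomas of mice with an oncogenic NRAS transgene under the tyrosinase promoter (Tyr::NRAS Q61K), 1 intact copy of the tumour suppressor Cdkn2a (Cdkn2a+/-) and loxP sites in both copies of the E-cadherin gene (Cdh1 F/F). Ecad lines carried no Cre. ΔEcad lines also carried Tyr::CreA, which deletes Cdh1 in cells of the melanocyte lineage. The Ecad lines were Ma_1007 and Ma_1181 (male) and Ma_1014 and Ma_1039 (female), and the ΔEcad lines were Ma_1062 and Ma_1456 (male) and Ma_1057, Ma_1064 and Ma_1069 (female). Each line is a single culture with 1 list, so lines are the replicates and no line has a repeat. The ages of the mice are not given in the sources used here.

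H3K27ac, an acetyl group on the lysine at position 27 of histone H3, sits on nucleosomes beside active promoters and enhancers, where acetyltransferases such as CBP and p300 place it. E-cadherin is the adhesion molecule that joins melanocytes to keratinocytes, and its cytoplasmic tail binds catenins, among them β-catenin. A peak is a stretch where precipitated reads rose past the authors' threshold, so a missing peak is not proof of a missing mark.

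Melanocyte promoters were marked throughout. Of 8 melanocyte marker genes, 7 (among them Mitf, Sox10 and Pmel) had a peak within 1 kb of a start in all 9 lists, and Tyrp1 had one in 6. Of 16 markers of fibroblasts, keratinocytes, leucocytes and endothelium, 14 had none in any list and 2 (Pdgfra and Tek) had one in line Ma_1007 only. The 4 Y-linked genes checked were called in the 4 male lists and in none of the 5 female lists. No list had a peak within 1 kb of a Cdh1 start, and no member lay in Cdh1. Ecad lists held 25757 to 41663 peaks and ΔEcad lists 20741 to 30340, with means of 31330 ± 7054 (SD, n = 4) and 26176 ± 3818 (SD, n = 5). The ranges overlapped.

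**Figure D1:**
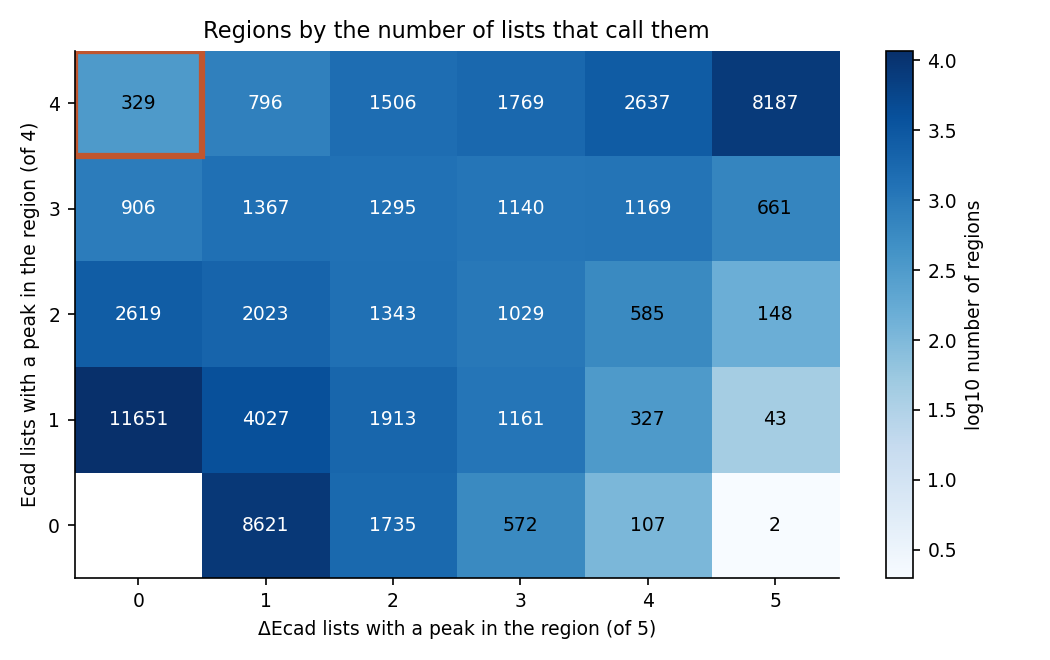
Number of joined regions by how many of the 5 ΔEcad lists (horizontal axis) and of the 4 Ecad lists (vertical axis) called them, with colour on a log10 scale. The outlined cell holds the 329 members, beside 796 regions with 1 ΔEcad call more and 906 with 1 Ecad call fewer.

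The count rests on single lists on both sides of the rule. Among the 796 regions with all 4 Ecad calls and a single ΔEcad call, that call came from line Ma_1062 in 402 and from line Ma_1456 in 259. It came from line Ma_1064 in 81, from line Ma_1069 in 38 and from line Ma_1057 in 16. Among the 906 regions with 3 Ecad calls and no ΔEcad call, line Ma_1181 was the missing one in 496. Line Ma_1039 was missing in 168, line Ma_1007 in 134 and line Ma_1014 in 108. Without line Ma_1062 the rule would keep 734 regions, without line Ma_1456 591, without line Ma_1181 835 and without line Ma_1039 499. Each omission drops a condition of the rule, so a rise is built in. List length also mattered. With every list cut to its 20741 strongest peaks, 117 regions met the rule and 14 met the reverse, and 52 of the 329 members overlapped one of the 117. Similar counts hid a turnover of members in other settings. Keeping peaks of at least 500 bp gave 246 regions and retained 102 of the 329 members, a −log10 q of at least 10 gave 349 and retained 229, and a call on at least 25% of the region gave 334 and retained 254.

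Sequences are given for the strongest members at a promoter and away from one. The windows are 300 bases centred on the highest-ranked summit, on the plus strand of GRCm38, with CpG dinucleotides in capitals. The first 3 are the strongest members at a promoter and the next 3 the strongest away from one.
Olfml1: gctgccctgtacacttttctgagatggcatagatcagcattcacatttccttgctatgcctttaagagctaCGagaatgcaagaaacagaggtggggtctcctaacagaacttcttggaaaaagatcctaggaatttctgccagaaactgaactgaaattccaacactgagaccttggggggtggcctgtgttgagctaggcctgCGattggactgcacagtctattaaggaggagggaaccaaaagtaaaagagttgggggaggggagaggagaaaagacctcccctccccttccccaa
Gm11696: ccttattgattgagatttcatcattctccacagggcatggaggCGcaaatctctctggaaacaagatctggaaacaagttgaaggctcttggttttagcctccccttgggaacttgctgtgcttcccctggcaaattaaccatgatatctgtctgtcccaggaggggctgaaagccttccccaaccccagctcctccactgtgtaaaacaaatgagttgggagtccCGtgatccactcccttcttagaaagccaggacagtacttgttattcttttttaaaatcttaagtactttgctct
Rex1bd: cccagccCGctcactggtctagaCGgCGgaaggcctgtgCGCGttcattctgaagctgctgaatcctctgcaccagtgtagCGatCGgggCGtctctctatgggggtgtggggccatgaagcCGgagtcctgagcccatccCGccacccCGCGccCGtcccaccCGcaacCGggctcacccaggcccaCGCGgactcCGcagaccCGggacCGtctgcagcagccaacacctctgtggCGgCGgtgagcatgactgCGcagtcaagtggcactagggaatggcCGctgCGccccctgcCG
Zfp469: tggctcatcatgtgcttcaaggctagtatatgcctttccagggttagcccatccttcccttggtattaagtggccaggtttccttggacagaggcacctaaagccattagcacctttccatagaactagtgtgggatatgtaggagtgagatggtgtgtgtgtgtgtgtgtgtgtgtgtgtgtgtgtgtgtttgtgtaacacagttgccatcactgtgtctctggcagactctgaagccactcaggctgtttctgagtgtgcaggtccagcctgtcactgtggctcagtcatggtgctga
Gm43507: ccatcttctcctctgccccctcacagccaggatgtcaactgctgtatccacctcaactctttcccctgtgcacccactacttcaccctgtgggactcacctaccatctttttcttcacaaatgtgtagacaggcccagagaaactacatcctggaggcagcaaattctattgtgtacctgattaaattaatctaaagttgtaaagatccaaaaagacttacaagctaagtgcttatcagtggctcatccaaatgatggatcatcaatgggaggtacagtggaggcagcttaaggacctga
Gm46138: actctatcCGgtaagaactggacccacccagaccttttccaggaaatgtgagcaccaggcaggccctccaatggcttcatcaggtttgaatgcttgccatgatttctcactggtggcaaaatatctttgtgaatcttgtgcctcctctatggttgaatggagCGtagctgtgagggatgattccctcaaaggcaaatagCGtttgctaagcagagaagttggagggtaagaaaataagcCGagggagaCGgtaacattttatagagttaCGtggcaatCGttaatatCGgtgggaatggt

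The distal window near Zfp469 (chr8:122190038-122190337) and the one in Ldb2 (chr5:44635109-44635408) held no CpG, and the one near Gm46138 (chr9:78772562-78772861) held 8. At promoters, Olfml1 (chr7:107567128-107567427) and Gm11696 (chr11:109353351-109353650) held 2 each and Rex1bd (chr8:70506483-70506782) held 26. CpG islands are stretches where this dinucleotide has not been depleted, and they cover the starts of many widely expressed genes.

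Member Zfp469, named for its nearest start 77910 bp away, was the strongest. It spans chr8:122189819-122191659 in an intron of the annotated gene Gm20388, with Zfpm1, which encodes a GATA cofactor, as the nearest protein-coding start. Strength is given as the percentile of the peak's −log10 q within its own list. It stood at percentile 84.9 in line Ma_1007, 76.7 in Ma_1181, 73.3 in Ma_1014 and 79.0 in Ma_1039. The fold enrichment of the peak was 12.8, 17.6, 13.6 and 14.9 in the same order. All 4 lists placed it in their upper part, and the nearest ΔEcad peak was 19420 bp away.

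The second strongest lay in an intron of Ldb2 at chr5:44634496-44636424, 40617 bp from the nearest start of that gene. LDB2 is a partner of LIM-domain transcription factors. Its percentiles were 78.4 in Ma_1007, 72.4 in Ma_1181, 78.7 in Ma_1014 and 74.3 in Ma_1039. These 4 values lay close together, and the nearest ΔEcad peak was 51924 bp away. The third, intergenic at chr9:78771131-78774737 beside Gm46138, spread more widely, from percentile 58.3 in Ma_1181 to 91.3 in Ma_1007.

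Olfml1, which encodes a secreted protein of the olfactomedin family, was the strongest member at a promoter. Its region, chr7:107565791-107569378, covered the only annotated start of the gene. Percentiles were 61.4 in Ma_1007, 80.7 in Ma_1181, 68.8 in Ma_1014 and 77.2 in Ma_1039. Every list had it in its upper part. Line Ma_1062 had a ΔEcad peak 1424 bp away and the other ΔEcad lists had their nearest 22730 to 42829 bp away.

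All 8 annotated starts of Rex1bd lay within 1 kb of its member, chr8:70505894-70507125. Percentiles were 58.8 in Ma_1007, 82.8 in Ma_1181, 76.6 in Ma_1014 and 55.9 in Ma_1039. The 5 ΔEcad lists had their nearest peaks 2414 to 2850 bp away. The start of the non-coding gene Gm11696 lay 208 bp from the member at chr11:109352615-109354217, which had percentiles of 73.3 in Ma_1007, 48.1 in Ma_1181, 79.0 in Ma_1014 and 73.9 in Ma_1039. All 5 ΔEcad lists had a peak within 4181 bp of it.

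**Figure D2:**
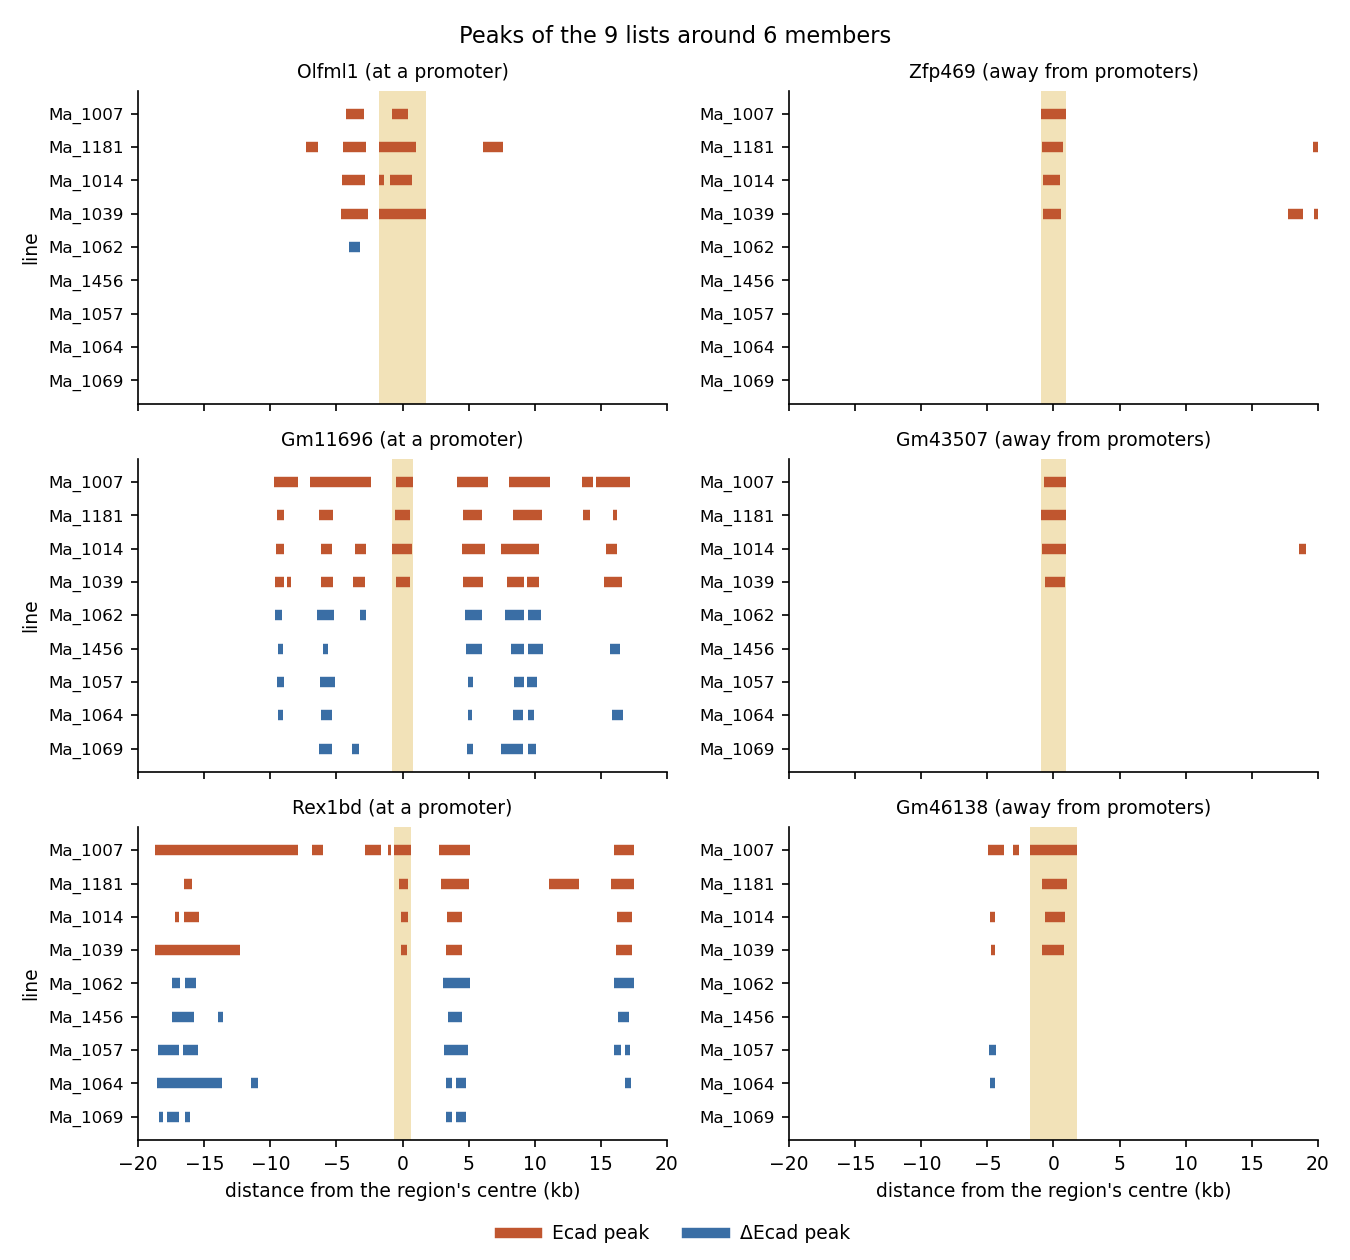
Peaks of each of the 9 lists (rows, Ecad lines above ΔEcad lines) within 20 kb of the centre of the 6 strongest members whose windows are printed, by distance from the region's centre in kb, with the region shaded. Only Ecad rows have peaks in the shaded regions, and around Gm11696 and Rex1bd all 5 ΔEcad rows have peaks outside them.

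Few members stood that high. Over the 329 members, the mean percentile over the 4 Ecad lists had a median of 35.5, beside 79.3 in the 8187 regions called in all 9. For the 3978 other regions called in exactly 4 lists, the mean was taken over the Ecad lists that called each region. Its median was 37.1, without the 107 of these regions that had no Ecad call. Of the members, 115 were below the median of every Ecad list and 12 were above the median of all 4. The weakest lay in an intron of Limd1, which encodes a LIM-domain scaffold protein, at percentile 10.4 in Ma_1007, 3.4 in Ma_1181, 4.0 in Ma_1014 and 0.8 in Ma_1039. Its lowest −log10 q was 5.8, close to the lists' own lower limit just above 5. Just outside the rule, the mean percentile over the Ecad lists that call a region had medians on both sides of the members' 35.5. It was 42.0 in the 796 regions with a single ΔEcad call and 31.8 in the 906 with 3 Ecad calls. Both sets are larger than the members, so their strongest regions can stand higher by number alone. The 5 strongest regions 1 call short of the rule were at Creb3l2 (mean percentile 92.4), Ubn2 (90.8), Copg2 (86.9), Wipi1 (86.8) and Celsr1 (84.4), and each had its single ΔEcad call in line Ma_1062.

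The lists ranked the members differently. Median percentile was 45.0 in line Ma_1007, 36.1 in Ma_1181, 33.2 in Ma_1014 and 29.5 in Ma_1039, a mean of 36.0 ± 6.62 (SD, n = 4). The member peaks themselves were short, with medians of 777 bp in Ma_1007, 717 bp in Ma_1181, 764 bp in Ma_1014 and 627 bp in Ma_1039, where all peaks of these lists had medians of 1102 to 1182 bp. Over the 329 members, Pearson's r of the percentiles was 0.60 between the female lines Ma_1014 and Ma_1039. It was 0.27 between the male lines Ma_1007 and Ma_1181 and 0.07 to 0.20 between lines of different sex. Over the regions called in all 9 lists, the same r was 0.81 for the female pair, 0.49 for the male pair and 0.44 to 0.53 otherwise. The points of each r share the 2 lists, and members are not replicates.

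Promoter members, like promoter regions in general, were placed higher by the male lists than by the female lists. At the 158 members within 1 kb of a start, the median percentile was 51.9 in Ma_1007, 40.4 in Ma_1181, 33.3 in Ma_1014 and 27.9 in Ma_1039. At the 171 others it was 36.1, 28.6, 32.3 and 33.0 in the same order. The promoter median was above the distal one by 15.9 points in Ma_1007, by 11.8 in Ma_1181 and by 1.02 in Ma_1014, and below it in Ma_1039. Both male percentiles exceeded both female ones in 83 promoter members (52.5%), against 12 (7.59%) with the reverse order. Among the distal members the counts were 39 and 37. Over the 8403 promoter regions with 4 Ecad calls, 46.4% had the male order and 9.06% the female one, and over the 6821 distal ones 17.7% and 26.7%. Over every promoter region of a list, the median percentile was 69.1 in Ma_1007, 62.4 in Ma_1181, 59.8 in Ma_1014 and 60.3 in Ma_1039. With 2 lines of each sex this is a description.

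**Figure D3:**
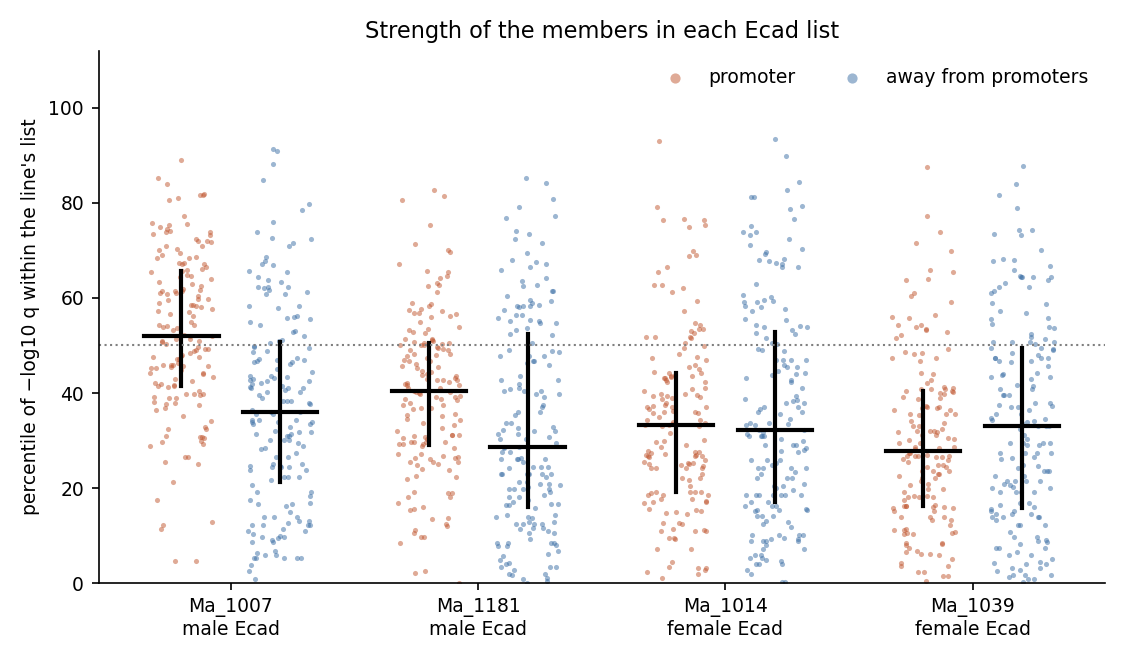
Percentile of −log10 q within the line's own list (vertical axis) for the 158 members at a promoter and the 171 away from one, in each of the 4 Ecad lists. Points are members, horizontal bars are medians and vertical bars run from the lower to the upper quartile; promoter medians go from 51.9 in line Ma_1007 to 27.9 in line Ma_1039, and the dotted line marks the middle of each list.

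Close to every second member lay at a promoter. A start of any annotated gene was within 1 kb of 158 of the 329, or 48.0% (Wilson interval of 95%, 42.7 to 53.4%, for counting error only). The share was 27.4% of all regions, 23.2% of the other regions called in exactly 4 lists and 59.1% of the regions called in all 9. Among regions with all 4 Ecad calls it was 48.0% to 59.1% whatever the number of ΔEcad calls. It was 32.0% in the regions with 3 Ecad calls and no ΔEcad call. Without line Ma_1181 the share of members fell to 29.8%, and with lists of equal length it was 69.2%. Exons were overlapped by 161 members (48.9%, against 31.9% of all regions). Introns held 87 (26.4% against 38.9%), and 81 lay between genes (24.6% against 29.2%). More than 100 kb from any start were 9 members (2.74%), against 3.70% of all regions.

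Members were narrow beside regions called everywhere. Their median width was 1217 bp, with quartiles of 849 and 1673 bp. All regions had a median of 1292 bp, the other regions in exactly 4 lists 1551.5 bp and regions called in all 9 lists 3231 bp. A region is the union of its peaks, so calls in more lists can widen it. Among regions with all 4 Ecad calls, the median was 1497 bp with 1 ΔEcad call and 2423 bp with 4. How much of the contrast with regions called in all 9 lists comes from the joining was not tested. Promoter members had a median of 965 bp and distal ones 1443 bp. The widest, chr3:102260022-102271096, ran over 11075 bp at the non-coding gene A230001M10Rik. Its width came from line Ma_1014, whose peak was 11075 bp long, against 639 bp in Ma_1007, 1133 bp in Ma_1181 and 2437 bp in Ma_1039. It stood at percentile 93.0 in Ma_1014 and 87.5 in Ma_1039 and at 26.5 in Ma_1007 and 41.9 in Ma_1181, so the female lists were the high ones. The next widest, 6966 bp near Gm12495 on chromosome 4, was in the upper part of the lists of Ma_1007 (91.0) and Ma_1181 (58.0) and lower in Ma_1014 (30.9) and Ma_1039 (19.3). The other 8 of the 10 widest measured 3068 to 3817 bp and lay nearest to Gm43456, Atp6v0a1, Gm46138, Olfml1, 4930488L21Rik, Dst, Gm25365 and Gas7.

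Promoter members belonged to genes of many kinds. A protein-coding start lay within 1 kb of 148 members, and 158 protein-coding genes had such a start. Of these genes, 120 had no ΔEcad peak at any annotated start, 26 had one in 1 to 4 ΔEcad lists and 12 in all 5. Over the 21951 protein-coding genes, 135 (0.615%) had starts called in all 4 Ecad and no ΔEcad list, none had the reverse, and 4622 (21.1%) were called in all 9.

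The 25 strongest members at named protein-coding starts are described by what their genes do, an order made after they were known. Meaf6, a subunit of the NuA4 acetyltransferase complex, had percentiles of 73.9 in Ma_1007, 70.1 in Ma_1181, 69.1 in Ma_1014 and 54.3 in Ma_1039. Rybp, a subunit of variant Polycomb repressive complexes, had 75.4, 50.7, 76.5 and 64.0 in the same order. All 8 values were above the middle of their lists. Rybp also had a ΔEcad call in 2 lists within 1 kb of a start, and the nearest ΔEcad peak lay 1035 bp from the member. Pwwp2a, whose product binds the histone variant H2A.Z, had 81.0 in Ma_1007 and 43.8 to 53.4 in the others. Cenpb, which encodes a protein of centromeric repeats, had 77.2 in Ma_1007 and 41.1 in Ma_1181.

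Several of these genes encode enzymes. Pank4, of the pantothenate kinase family, ranged up to percentile 71.3, in Ma_1181, and was above the middle of every list. The promoter shared by Wdr6, which encodes a WD-repeat protein, and P4htm, a transmembrane prolyl hydroxylase, ranged from 52.6 in Ma_1014 to 81.4 in Ma_1181. Pts, an enzyme of tetrahydrobiopterin synthesis, ranged from 46.7 in Ma_1181 to 81.7 in Ma_1007, and Plcg1, phospholipase C-γ1, from 40.2 in Ma_1039 to 80.7 in Ma_1007. For both, line Ma_1007 was the high list. Cnnm3, of a family of magnesium transport proteins, also had its highest value, 81.7, in Ma_1007. Glcci1 (85.3 in Ma_1007, 39.4 to 53.2 elsewhere) and the ubiquitin ligase gene Trim62 (89.0 in Ma_1007, 31.2 to 47.6 elsewhere) were also highest in Ma_1007.

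Myh14, a non-muscle myosin heavy chain, ran the other way, with 76.5 in Ma_1014 and 69.8 in Ma_1039 against 45.2 in Ma_1007 and 49.1 in Ma_1181. A second member lay 320 bp from it. Gmnn encodes geminin, which blocks a second round of DNA replication, and Grwd1 acts in ribosome assembly. Gmnn had 75.4 in Ma_1181 and 32.0 in Ma_1039, and Grwd1 had 64.0 in Ma_1007 and 38.9 in Ma_1014. Wdfy3, an autophagy adaptor, ranged from 44.3 in Ma_1039 to 65.7 in Ma_1181. Kctd18, Tprgl and the zinc-finger genes Zfp821, Zfp606 and Zscan2 completed the upper promoter members, with mean percentiles of 49.9 to 53.2.

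Some members lay at a subset of a gene's starts. At Atp6v0a1, a subunit of the vacuolar proton pump, the member covered 1 of 7 annotated starts, and another start was called in all 5 ΔEcad lists. Its percentiles were 71.0 in Ma_1007, 37.8 in Ma_1181, 50.5 in Ma_1014 and 56.4 in Ma_1039. Pou2f1, which encodes the transcription factor OCT1, had 7 of its 14 starts near the member. Here 1 ΔEcad list had a peak within 1 kb of these near starts, not only at others. The nearest ΔEcad peak, in Ma_1062, was 310 bp from the member. Dst, which encodes the cytoskeletal linker dystonin, had 2 of 17 starts near its member and all 5 ΔEcad lists at another. In all 3 genes the promoter call of the member does not stand for the whole gene.

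Distance to the nearest ΔEcad peak varied widely. Its median over the members was 12895 bp, with 92 members within 5 kb, 21 within 1 kb and 44 beyond 50 kb. In 3 members, named here after their values were seen, all 5 ΔEcad lists had a peak within 1 kb. They were at Nfkbia, which encodes the NF-κB inhibitor IκBα, at Ap3m2, a subunit of an adaptor complex, and at Ahsa2 (nearest start 1700030C12Rik). The Nfkbia member was 485 bp long, with the ΔEcad peaks 375 to 431 bp away. Its percentiles were 49.0 in Ma_1007, 35.5 in Ma_1181, 12.6 in Ma_1014 and 19.9 in Ma_1039, below the middle of every list. In such members the starts of the gene were called in both genotypes. Joining peaks across gaps of up to 500 bp left 306 regions and kept 304 of the members.

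The named pathway lists held few members. Of the 14 lists, with 400 genes, 12 members (3.65% of members) had a listed gene as nearest protein-coding start, against 6.01% of all regions. No member was nearest to a gene of the lists of Wnt and β-catenin targets, RAS-MAPK feedback, integrins and matrix, growth factor receptors, or G1 cell cycle and survival. These lists had 290, 324, 350, 220 and 263 regions in that order. Members were 0.551% of all regions, so few would fall in any single list of this size. The empty lists were not weighed together. Sox6 and Crim1 were each the nearest gene of 2 members.

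Trpm1, a cation channel gene of melanocytes regulated by MITF, had an intronic member at chr7:64158421-64160973 with percentiles of 30.9 in Ma_1007, 85.2 in Ma_1181, 12.9 in Ma_1014 and 49.2 in Ma_1039. Line Ma_1181 was far above the others. Sox6, a SOX-family gene of the neural crest list, had 2 intronic members 925 bp apart, with percentiles of 5.3 to 48.8 and of 14.0 to 30.1. All 8 values were below the middle of their lists.

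The member assigned to Ctnnb1, the gene of β-catenin, lay 61181 bp from its start, at the non-coding gene Gm19385. Its percentiles were 71.9 in Ma_1007, 64.6 in Ma_1181, 61.2 in Ma_1014 and 16.3 in Ma_1039. Line Ma_1039 was the low one. Crim1, a transmembrane protein with BMP-binding repeats from the list of YAP and TEAD targets, had a member at its promoter with 60.4 in Ma_1007, 48.3 in Ma_1181, 75.3 in Ma_1014 and 56.0 in Ma_1039. Its other member lay 191682 bp away at 19.7 to 47.3.

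The remaining listed genes had mean percentiles of 33.4 to 43.0. They were the EMT genes Loxl2 and Twist2, the AP-1 gene Fosb, the TGF-β antagonist Smad7, the ephrin gene Efna5 and the interferon receptor gene Ifnar1. The member assigned to Twist2, 48334 bp from its start, had 77.3 in Ma_1181 and 6.0 in Ma_1007. That assigned to Ifnar1, 31752 bp away, had 73.4 in Ma_1181 and 9.4 in Ma_1014. For both, line Ma_1181 alone was above the middle of its list. Fosb had a start 998 bp from its member, just within the promoter distance. Only 2 Ecad lists, and also 1 ΔEcad list, had a peak within 1 kb of that start. The members assigned to Loxl2, Smad7 and Efna5 lay 29126, 122296 and 323222 bp from those genes' starts, and that of Smad7 sat in an intron of Ctif.

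CpG-rich windows made up more of the promoter members than of other promoter sets, which is given as a description. A window counted as CpG-rich when its GC content passed 50% and its ratio of observed to expected CpG passed 0.6. That held for 103 of 158 promoter members (65.2%), against 30.1% of promoter regions among the others in exactly 4 lists, 47.2% of those in all 9 lists and 39.2% of all promoter regions. Median GC was 64.2% in promoter members and 54.0% in all promoter regions. Distal members had a median of 45.7%, beside 44.3% in all distal regions.

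The motif of AP-2, a factor family active in the neural crest and in epidermis, differed most in percentage points from all promoter regions among the 10 searched. In ratio, RUNX (2.53% of promoter members beside 4.63%) and the MITF motif TCATGTGA (0 of 158 beside 0.851%) were further apart, on 4 and 0 members. The AP-2 motif was searched as GCCNNNGGC, which reads the same on both strands. It was present in 51 of the 158 promoter members (32.3%, Wilson interval 25.5 to 39.9%). At distal members it was 6.43%, beside 6.28% of all distal regions. The promoter shares were 16.4% in promoter regions of the others in exactly 4 lists and 19.2% in all promoter regions. Within CpG-rich windows, 38.8% of members and 33.6% of all promoter regions held it. Within the other promoter windows it was 11 of 55 members, against 9.83% of all. The 3 strongest promoter members with a match are shown with the motif in capitals.
Cnnm3: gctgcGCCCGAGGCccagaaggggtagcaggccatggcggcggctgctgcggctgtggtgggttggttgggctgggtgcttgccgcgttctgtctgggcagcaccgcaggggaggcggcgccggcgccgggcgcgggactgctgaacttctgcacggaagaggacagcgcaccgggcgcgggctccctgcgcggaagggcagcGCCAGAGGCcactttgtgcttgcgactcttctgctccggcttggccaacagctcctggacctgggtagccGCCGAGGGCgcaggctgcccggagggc
Wdr6: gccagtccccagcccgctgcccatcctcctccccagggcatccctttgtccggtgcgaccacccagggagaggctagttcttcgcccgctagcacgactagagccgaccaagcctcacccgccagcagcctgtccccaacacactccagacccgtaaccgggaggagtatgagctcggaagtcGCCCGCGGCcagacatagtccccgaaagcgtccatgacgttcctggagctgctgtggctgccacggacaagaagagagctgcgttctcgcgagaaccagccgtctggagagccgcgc
Crim1: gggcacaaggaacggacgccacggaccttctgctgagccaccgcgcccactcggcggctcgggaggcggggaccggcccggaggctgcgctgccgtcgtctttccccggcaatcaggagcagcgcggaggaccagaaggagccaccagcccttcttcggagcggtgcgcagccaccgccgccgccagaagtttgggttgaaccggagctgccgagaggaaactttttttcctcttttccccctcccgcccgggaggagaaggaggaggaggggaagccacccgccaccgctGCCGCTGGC

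Cnnm3 (chr1:36511878-36512177) held 3 matches, and Wdr6 (chr9:108578376-108578675) and Crim1 (chr17:78200264-78200563) held 1 each. The motif is GC-rich, and the members' windows were GC-rich too, so their parts cannot be told apart here. A match is a string of letters and not evidence of binding.

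**Figure D4:**
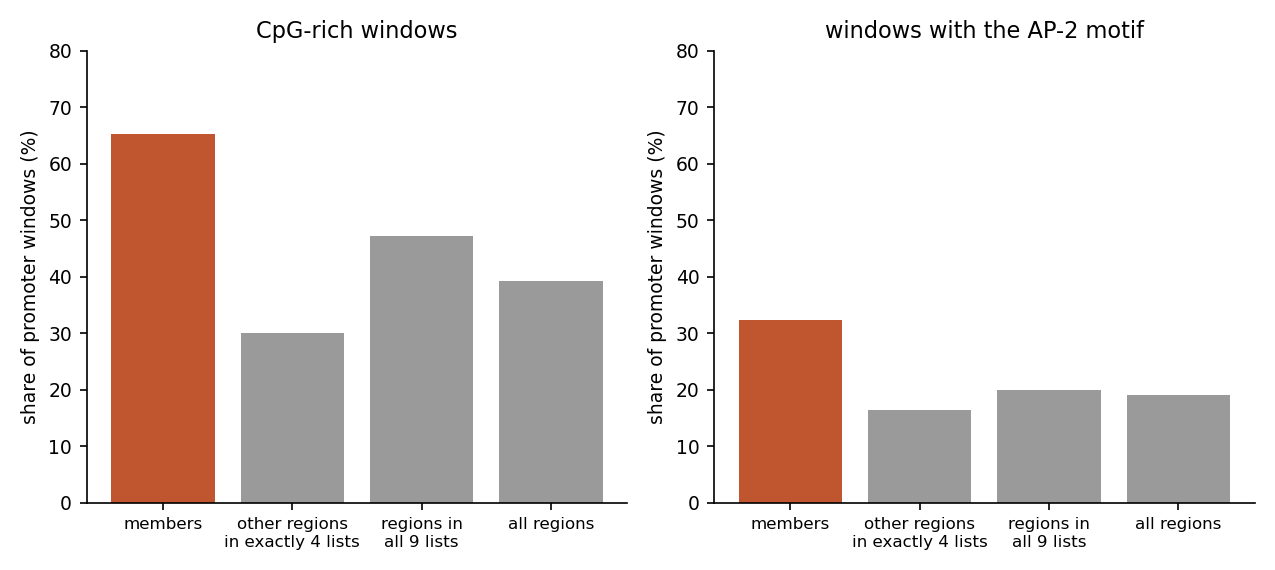
Share of promoter windows (vertical axes, percent) that were CpG-rich (left) and that held the AP-2 motif (right), for the 158 promoter members and 3 other sets of promoter regions. Members stand at 65.2% and 32.3%, all promoter regions at 39.2% and 19.2%.

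The other motifs were counted on both strands. Among the 171 distal members, AP-1 (TGACTCA) was in 4.68%, beside 6.27% of all distal regions. TEAD (ACATTCC) was in 2.34% beside 4.67%, and TCF/LEF (CTTTGAT) in 7.02% beside 5.36%. SOX (AACAAAG) was in 7.60% beside 9.90%, RUNX (TGTGGTT) in 3.51% beside 7.06%, and ETS (CCGGAAG) in 2.92% beside 1.14%. The MITF motifs CACGTG and TCATGTGA were in 1.75% and 2.34%, beside 3.28% and 1.96%, and the nuclear receptor half-site AGGTCA in 20.5% beside 18.4%. These shares stand for 3 to 35 members each. No motif of the 10 contains another.

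Members were spread unevenly over the chromosomes. Chromosome 7 held 38 of them (11.6%), against 5.45% of all regions and 7.03% of promoter regions, and chromosome 11 held 30 (9.12% against 6.17%). Chromosome 10 held 5 (1.52% against 5.11%). The X held 13 (3.95% against 2.31%), the Y none. Members were 4.01% of the X regions called in all 4 Ecad lists, 3.98% of those of chromosome 7 and 0.625% of those of chromosome 10. Of the 38 on chromosome 7, 23 were at promoters, among them Olfml1, Myh14, Grwd1, Zscan2 and Zfp606. The copy number of the chromosomes in these lines was not analysed here.

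**Figure D5:**
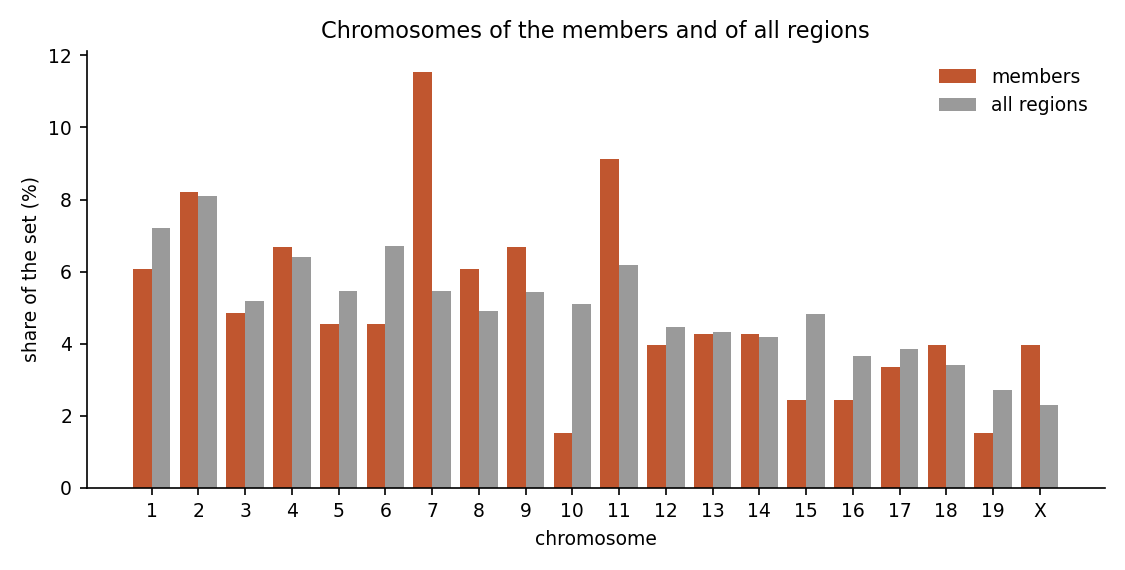
Share of the 329 members and of all 59668 regions on each chromosome (vertical axis, percent; the Y, with no member, is left out). Chromosome 7 has 11.6% of members and 5.45% of all regions, and chromosome 10 has 1.52% and 5.11%.

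Some members lay close together. Pairs of neighbours less than 10 kb apart numbered 8, and 5 of the 8 were on chromosome 7. The same count was not made for other sets of regions, so it cannot be called high or low. One pair, named after its position was seen, lay 269 bp apart at the starts of Hras, a RAS family gene, and Lrrc56. The Hras member had percentiles of 53.7 in Ma_1007, 19.2 in Ma_1181, 39.8 in Ma_1014 and 23.0 in Ma_1039. The Lrrc56 member had 48.5, 36.7, 37.1 and 16.4 in the same order. Only the value of Hras in Ma_1007 was above the middle of its list, and the nearest ΔEcad peak was 19154 bp from that member. No protein-coding gene was the nearest start of more than 2 members, and 16 genes were nearest to 2. The 2 regions of the reverse pattern lay 144 bp from a start of Pnpla8, a phospholipase gene, and 12483 bp from the nearest protein-coding start, U90926.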

How the data were processed

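Reads were mapped by the authors with bowtie2 to mouse build GRCm38 (mm10), using European Galaxy. The submitters' processing notes name Bowtie2 2.4.5, MACS2 2.2.7.1 and deepTools 3.5.1.0.0 without roles; the settings of peak calling are not given in the sources used here. The authors deposited 1 peak list per line, with a score (a rounded-down form of the −log10 q), fold enrichment (a ratio), −log10 p, −log10 q and summit offset of each peak. The study's methods give 1 target depth for all libraries, pooled in equal amounts. The depth each library reached is not given in the sources used here, and a longer list can come from a deeper library. The 4 input libraries were not analysed here.

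Peaks of the 9 lists were joined where they overlapped or touched. Starts came from GENCODE M21 and sequence from RefSeq GRCm38.p6, the build of the lists. Percentiles of −log10 q were taken within each list, and the strongest peak stood for a region. The joining and the rule were tested on simulated lists. Values are descriptions with no test, since the calls chose the members. Members and gene lists were chosen with earlier results of these data known. Named were the 15 strongest and 10 widest members, members nearest to a listed gene, the 25 strongest at named protein-coding starts, the weakest, and the 5 strongest regions 1 call outside the rule. Alternatives changed the joining, the call, the lists and the promoter distance. Analysis used Python with pandas and scipy.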

Additional observations from a re-analysis of the deposited data

Results flagged for a closer look

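In 1 of the 52 named members, a single list stood apart from the other 3. The intronic member of Gas7, which encodes a growth arrest protein, was at percentile 9.9 in line Ma_1007 and at 67.9 in Ma_1181, 70.2 in Ma_1014 and 64.3 in Ma_1039. The gap between line Ma_1007 and the nearest other list was 0.902 of the whole range, past Dixon's critical value at the 95% level for 4 samples. Chance alone gives such a gap in about 1 group in 20, so 1 among 52 is not more than that rate. None of the 16 sets of list-level values, such as peak number and median percentile, passed the same limit.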

How the results depend on the processing

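The depth each library reached, against a common target, is not given in the sources used here, so a missing call cannot be separated from a shallow list. Each list is a single line without a repeat, and a call is a threshold decision. Cutting every list to equal length gave 117 regions, a promoter share of 69.2%, a median width of 1.35 kb, a median percentile of 53.4 and 4 members near listed genes. Peaks of at least 500 bp gave a median width of 1.49 kb and a percentile of 45.1. In both settings percentiles were those of the full lists, so dropping weak or short peaks can raise them by itself. A −log10 q of at least 10 gave a promoter share of 53.6%, and joining across 500 bp a width of 1.32 kb. Taking the nearest start of any gene left 5 members near listed genes. Leaving out 1 line at a time loosens the rule, so a higher region count is built in. This gave 346 to 835 regions and promoter shares of 29.8 to 55.9%. Widths were 1.06 to 1.39 kb, percentiles 32.7 to 41.2, and 13 to 44 members lay near listed genes. The lines whose absence moved the region count past 1.5 times were Ma_1181, Ma_1039, Ma_1062 and Ma_1456. Under the other settings these values moved less, though the members themselves changed as given above. The AP-2 share was 30.4% in windows around the region's centre. The alternatives for listed genes and for the motif window were chosen after seeing the data. No paired analysis was possible because each line has 1 list and no result comes from a test.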

Other observations

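Members were not only beside protein-coding genes. The nearest start belonged to a protein-coding gene in 215 of the 329 members, to a processed pseudogene in 34, to a long intergenic non-coding RNA in 27 and to an antisense RNA in 16. A protein-coding gene contained or overlapped 224 members. The same counts were not made over all regions, so they do not set the members apart. One member, picked after its values were seen, covered the start of Peg13, an imprinted non-coding RNA inside Trappc9. It spans chr15:72809731-72811299, with percentiles of 45.6 in Ma_1007, 61.1 in Ma_1181, 62.8 in Ma_1014 and 65.5 in Ma_1039. Line Ma_1007 was the low list, and the nearest ΔEcad peak lay 41155 bp away.

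Neighbouring marks differed between members. Lines Ma_1062 and Ma_1456 each had a peak within 5 kb of 63 members, and line Ma_1069 of 38. Members more than 50 kb from the nearest peak of a list numbered 81 in line Ma_1456 and 137 in line Ma_1069. Line Ma_1069 had the shortest list and Ma_1456 the longest of the ΔEcad lists. The order of list length did not hold throughout. Line Ma_1062 had 24910 peaks, fewer than Ma_1057 (25628 peaks, 48 members within 5 kb) and Ma_1064 (29263 peaks, 59 members).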
